A study of Mus musculus with 3 samples.

Results

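NF-kB is a set of transcription factors built from pairs of Rel-family proteins, and the I-kB proteins are their partners and inhibitors. The 10 mouse genes that encode them were taken by name: the Rel subunits Nfkb1, Nfkb2, Rel, Rela and Relb, and the I-kB proteins Nfkbia, Nfkbib, Nfkbie, Nfkbiz and Bcl3. They are 10 of the 22342 protein-coding genes that the GENCODE M1 annotation places on chromosomes 1 to 19 and X of the mm9 genome. The measurement was ChIP-Seq of RNA polymerase II (Pol_II) that carries phosphate on Ser5 of the repeats in its tail, called Ser5 from here on, which is found on Pol_II that has begun to transcribe. Chromatin came from primary bone marrow-derived macrophages of female Fvb mice (Fvb/Hsd in the study's methods) on day 7 of differentiation, with no mutation or transgene named in the labels. There was 1 Ser5 library from untreated macrophages, 1 from macrophages given lipopolysaccharide (LPS) at 10 ng/ml for 2 h, and 1 library of input DNA, made without antibody, from untreated cells only. The number of mice and their age were not given in the sources used here.

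In resting cells, I-kB proteins hold NF-kB dimers in the cytoplasm. LPS, a component of bacterial walls, acts through the receptor Tlr4 and a chain of adaptors and ubiquitin ligases on the I-kB kinase, which marks I-kB proteins for degradation and so frees the dimers to enter the nucleus. Several genes of both families are textbook NF-kB targets themselves, Nfkbia above all, whose new protein takes NF-kB back out of the nucleus. Nfkbiz and Bcl3 are unusual members of the I-kB family: they work inside the nucleus, on dimers that sit on DNA. In what follows, inhibitor genes is a label for the whole I-kB family, Nfkbiz and Bcl3 included. It does not state that each product inhibits NF-kB.

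The 2 Ser5 libraries held 7616771 tags (untreated) and 6249819 tags (LPS), and the input held 7533308. A tag was counted at its 5′ end, and levels are given as TPM, here tags (not transcripts) per 1000000 tags of the library, or as TPM per kb of sequence. With 1 library per condition there was no replicate error and no test, so each comparison is between these libraries, and the 95% intervals cover counting error only. A gene was called higher or lower when its TPM differed at least 2 times between the Ser5 libraries, given at least 10 Ser5 tags. Since the study's methods give the trimmed tag lengths of these libraries the other way round from the files, the labels were checked on inflammatory genes: from untreated to LPS, tags went from 24 to 7803 in Ccl5, from 35 to 1277 in Il1b and from 1640 to 12945 in Tnf. Macrophage markers were present (7 of 7 had Ser5 peaks in untreated cells), while 12 of 14 markers of T cells, B cells, neutrophils and fibroblasts had none, with at most 1.12 TPM per kb around their TSS. The other 2, Cd3d and S100a8, had a peak each in the gene body, with 0.131 and 1.97 TPM per kb around the TSS. Over its gene body Cd3d had 136 tags in untreated cells, or 3.39 TPM per kb, 3.84 times the input (2.63 to 5.74). S100a8 had 16 tags, or 2.18 TPM per kb. After LPS, 5 of the 7 macrophage markers were called lower (gene-body ratios of 0.157 for Mrc1 to 0.449 for Csf1r), Emr1 was called higher (3.01, 2.86 to 3.17) and Sfpi1 was neither (1.44, 1.38 to 1.51); their part in what follows was not tested.

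NF-kB dimers bind DNA at κB sites, so the sequence around the transcription start sites (TSS) of the 10 genes was searched for the κB consensus, a 10-base motif with several degenerate positions, on both strands and with overlapping matches kept. Within 1 kb on either side of the TSS it occurred in 10 of the 10 genes, against 25.2% of 22337 coding genes. In the 250 bases before the TSS it occurred in 5 of the 10, namely the subunit genes Nfkb2, Rel and Relb and the inhibitor genes Nfkbia and Nfkbie, against 4.25% of all coding genes. In these 250 bases the share of G and C was 57.6% (Nfkbie) to 77.6% (Rel) in the 10 genes. The median over all coding genes was 54.8%, and the part of this difference in the match counts was not tested. The match nearest to each TSS is shown with 10 bases on either side, on the strand of the gene and in mm9 coordinates, with the match in capitals. A match describes the letters only, and binding was not measured.
Nfkb1, chr3:135354461-135354490, minus strand: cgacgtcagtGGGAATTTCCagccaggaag
Nfkb2, chr19:46379206-46379235, plus strand: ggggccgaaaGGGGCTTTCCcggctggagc
Rel, chr11:23671041-23671070, minus strand: gtaagcagcgGGAAATCCCCccccctcccc
Rela, chr19:5637888-5637917, plus strand: ggcctgcggcGGAATCTCCCccctccccgc
Relb, chr7:20214792-20214821, minus strand: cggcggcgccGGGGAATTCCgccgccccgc
Nfkbia, chr12:56593644-56593673, minus strand: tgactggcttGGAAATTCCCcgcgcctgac
Nfkbib, chr7:29551516-29551545, minus strand: ggggcgtgttGGGGAATTCCcgatagggcg
Nfkbie, chr17:45692533-45692562, plus strand: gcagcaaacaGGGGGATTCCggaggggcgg
Nfkbiz, chr16:55838963-55838992, minus strand: tttttggcctGGGAATTTCCagcgtgtgga
Bcl3, chr7:20408083-20408112, minus strand: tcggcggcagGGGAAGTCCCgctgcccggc

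The first base of the match lay before the TSS in Nfkb2 (11 bases), Relb (24), Nfkbia (29), Rel (90) and Nfkbie (122). In Bcl3 (17 bases), Nfkb1 (30), Nfkbiz (30) and Nfkbib (124) it lay after the TSS, in exon 1, and in Rela it lay in intron 1, 415 bases after the TSS. The same 10 letters stood 30 bases after the TSS in both Nfkb1, a subunit gene, and Nfkbiz, a gene of the I-kB family. Nfkbia had 6 matches within 1 kb, among them an overlapping pair, as did Nfkb2. The 250 bases before the Nfkbia TSS (chr12:56593635-56593884, minus strand), the gene with the most Ser5 per kb of the 10, are given whole, with the single match in capitals.
Nfkbia: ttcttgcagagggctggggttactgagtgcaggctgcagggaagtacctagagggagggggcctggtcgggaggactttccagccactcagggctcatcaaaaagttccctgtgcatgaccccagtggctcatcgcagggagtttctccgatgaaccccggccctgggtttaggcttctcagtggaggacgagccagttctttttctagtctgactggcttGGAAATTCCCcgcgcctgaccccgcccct
Its CpG content set it apart from the other 9: the CpG observed/expected ratio of this stretch was 0.366 in Nfkbia, and 0.603 (Nfkbiz) to 0.988 (Rel) in the others, with a median of 0.515 over all coding genes.

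Over the whole gene body, 8 of the 10 genes were called higher after LPS, 4 of the 5 subunit genes and 4 of the 5 inhibitor genes. Of all 17378 coding genes with enough tags, 5.83% were called higher and 11.3% lower, and none of the 10 was called lower. The median LPS/untreated ratio was 3.12 over the subunit genes and 3.53 over the inhibitor genes, against 0.874 over all coding genes. The 2 families overlapped throughout their range, which ran from 1.97 to 5.61 for the subunits and from 1.58 to 6.17 for the inhibitors. The plot of all coding genes shows where each of the 10 stood.

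**Figure D1:**
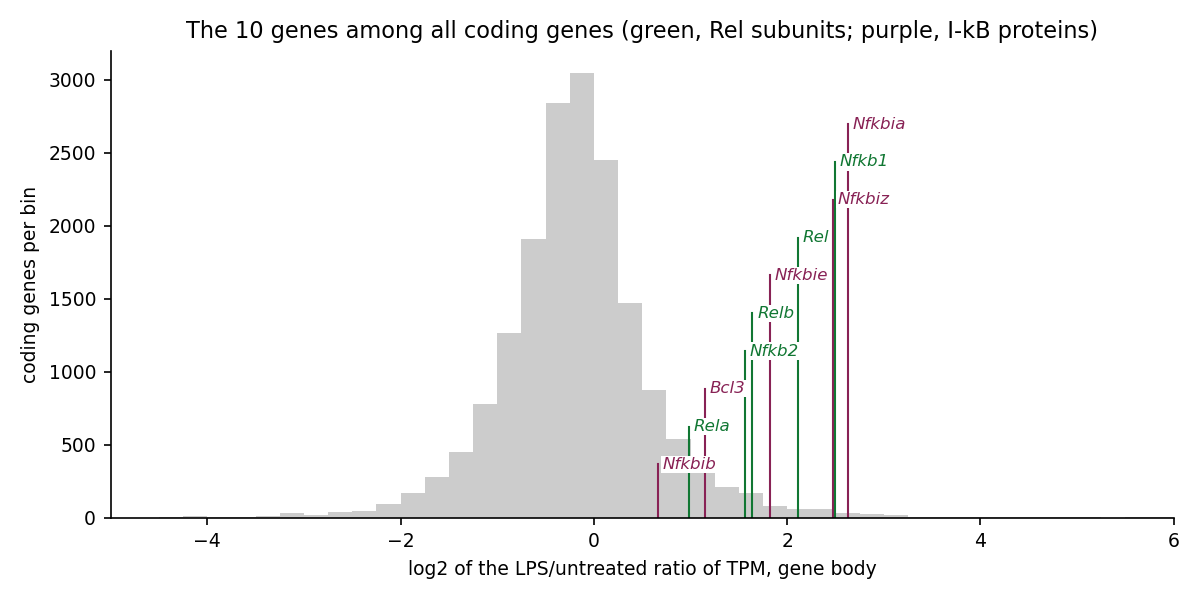
Histogram of the log2 LPS/untreated ratio of TPM over gene bodies for the 17378 coding genes with at least 10 Ser5 tags (x axis, bins of 0.25; y axis, genes per bin), with a line for each of the 10 genes; the heights of the lines only separate the names. All 10 stand right of the median of all coding genes (-0.19), from Nfkbib at 0.66 to Nfkbia at 2.63.

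Nfkb1 encodes p105, the precursor of the p50 subunit, and is the longest of the 10 (106893 bp, chr3:135247619-135354511, minus strand). Its gene body held 1510 tags in untreated cells, 6949 after LPS and 765 in the input. Per length this was 1.85, 10.4 and 0.950 TPM per kb, so the untreated gene lay 1.95 times above the input (95% interval 1.79 to 2.13) and the LPS/untreated ratio was 5.61 (5.30 to 5.93), rank 123 of 17378.

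Rel encodes c-Rel, a subunit with a transactivation domain that is prominent in blood cells (29457 bp, chr11:23641514-23670970, minus strand). Its body went from 328 to 1159 tags, with 167 in the input. Like Nfkb1, it stood close to the input before LPS (1.46 against 0.753 TPM per kb) and reached 6.30 TPM per kb after it, a ratio of 4.31 (3.81 to 4.88).

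Rela encodes p65, the main transactivating subunit in many cells (10648 bp, chr19:5637483-5648130, plus strand). Tags went from 288 to 465, with 62 in the input, or from 3.55 to 6.99 TPM per kb. The ratio of 1.97 (1.70 to 2.29) was the lowest of the subunit genes, and its interval spanned the limit of 2.

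Nfkb2, which encodes the p100 precursor of p52, and Relb, whose product pairs with p52, form the non-canonical branch of the pathway. Nfkb2 (7354 bp, chr19:46379227-46386580, plus strand) had the most Ser5 per kb of the subunit genes in both states, 6.61 TPM per kb in untreated cells and 19.4 after LPS, from 370 and 893 tags, against 30 in the input. Relb (23222 bp, chr7:20191566-20214787, minus strand) went from 291 to 745 tags, with 96 in the input, or from 1.65 to 5.13 TPM per kb. The ratios of 2.94 (2.60 to 3.33) and 3.12 (2.72 to 3.59) did not differ beyond counting error, and both intervals lay below those of Rel and Nfkb1.

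**Figure D2:**
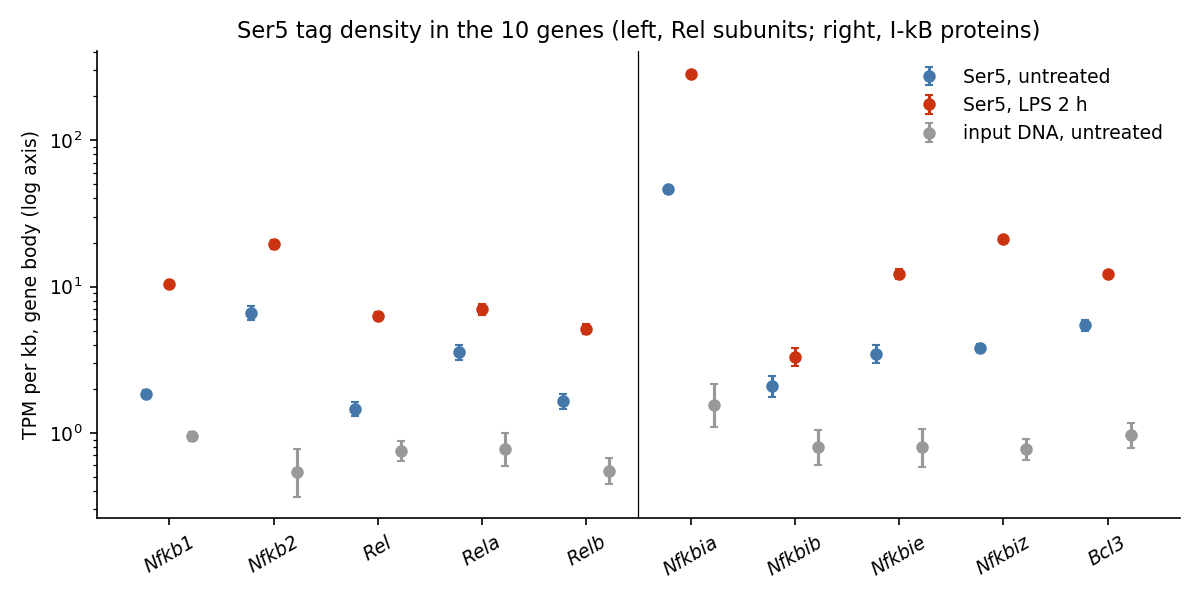
Ser5 and input tag density over the gene body (y axis, TPM per kb, log axis) for the 5 Rel subunit genes on the left and the 5 I-kB protein genes on the right; points are single libraries and bars are exact Poisson 95% intervals. Nfkbia lies above the others in both Ser5 libraries, and Nfkb1 and Rel lie nearest to the input before LPS.

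Among the classical inhibitors, Nfkbia (I-kB alpha, 3237 bp, chr12:56590398-56593634, minus strand) carried the most Ser5 per kb of the 10 genes in both states. By tags alone the much longer Nfkb1 held more (1510 and 6949). Its body held 1139 tags before LPS, 5769 after it and 38 in the input, or 46.2, 285 and 1.56 TPM per kb. By gene-body level it was number 66 of 22342 coding genes in untreated cells and number 9 after LPS, and its ratio of 6.17 (5.79 to 6.58) was rank 104 of 17378. Counting each position and strand once lowered the ratio to 4.47 (4.12 to 4.84), and that in the window around the TSS from 4.73 to 2.97 (2.70 to 3.27).

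Nfkbie (I-kB epsilon, 7454 bp, chr17:45692665-45700118, plus strand) went from 196 to 568 tags, with 45 in the input, or from 3.45 to 12.2 TPM per kb, a ratio of 3.53 (3.0 to 4.18). Nfkbib (I-kB beta, 9262 bp, chr7:29543270-29552531, minus strand) had the smallest difference of the 10 genes, from 148 to 192 tags, with 56 in the input, a ratio of 1.58 (1.27 to 1.97) and rank 1815. The 3 classical I-kB genes thus had ratios whose intervals did not overlap, in the order alpha, epsilon, beta. Nfkbib shares 778 bp, part of its TSS window included, with Sirt2 on the other strand, and these libraries do not separate strands; outside the shared stretch its ratio was 1.68 (1.31 to 2.16), from 113 and 156 tags.

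Of the nuclear I-kB genes, Nfkbiz (I-kB zeta, 27525 bp, chr16:55811488-55839012, minus strand) went from 798 to 3637 tags, with 160 in the input, or from 3.81 to 21.1 TPM per kb. Its ratio of 5.55 (5.14 to 6.00) was next to that of Nfkb1 (ranks 125 and 123), and the 2 did not differ beyond counting error. Bcl3 (14309 bp, chr7:20393811-20408119, minus strand), whose product binds p50 and p52 dimers, went from 592 to 1081 tags, with 104 in the input, or from 5.43 to 12.1 TPM per kb. Its ratio of 2.23 (2.01 to 2.46) ranked below those of the other 7 genes called higher. The non-coding genes Gm16174 and Gm16175 overlap Bcl3 on the other strand, and their reads could not be told apart from its own.

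Around the TSS (1 kb on either side) the picture differed from the whole gene body. All 10 genes carried Ser5 there before LPS, between 5.77 (Nfkbib) and 63.2 TPM per kb (Nfkbia), against 0.796 to 1.46 in the input. All 10 also had a Ser5 peak in this window in both libraries. The share of all coding genes with such a peak was not computed, so this count does not set the 10 apart. Only 4 of the 10 were called higher, Nfkb2 among the subunits and Nfkbia, Nfkbie and Nfkbiz among the inhibitors. Of the 12572 coding genes with enough tags in the window, 5.70% were called higher and 14.0% lower, and none of the 10 was called lower.

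The subunit genes lay close together in this window, with ratios of 1.44 for Rela, 1.75 for Relb, 1.84 for Nfkb1, 1.94 for Rel and 2.42 for Nfkb2. The inhibitor genes fell on both sides of them. Nfkbia at 4.73 (4.40 to 5.08), Nfkbiz at 4.04 (3.20 to 5.14) and Nfkbie at 3.27 (2.64 to 4.08) were above each subunit gene, though the interval of Nfkbie met that of Nfkb2 (2.16 to 2.71). Bcl3 at 1.35 (1.18 to 1.54) and Nfkbib at 1.27 (0.941 to 1.73) were below each of them, within counting error of Rela (1.23 to 1.70). Nfkbib was the only gene whose interval held 1, so a difference at its TSS was not detectable at this depth. The window also takes in the 1 kb before the TSS. In Bcl3, the 500 bp before the TSS went from 53.6 to 60.2 TPM per kb. The 500 bp after it went from 24.7 to 45.4. In Rela these parts went from 38.1 to 33.0 and from 24.2 to 45.1, and in Rel from 34.7 to 41.9 and from 23.9 to 59.5. In Nfkb1 both rose about alike, from 10.5 to 20.5 and from 34.7 to 61.8. Medians were 1.84 for subunits and 3.27 for inhibitors, against 0.834 for all coding genes; with 5 genes in each family and overlapping ranges, the medians are descriptions.

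Downstream of the window the subunit genes separated. From 1 kb after the TSS to the 3′ end the ratio was 6.19 (5.83 to 6.57) for Nfkb1, 5.13 (4.41 to 5.98) for Rel, 3.90 (3.19 to 4.80) for Nfkb2, 3.83 (3.22 to 4.57) for Relb and 1.94 (1.60 to 2.35) for Rela. In this part 9 of the 10 genes were called higher, all but Rela, against 6.74% of 16570 coding genes, with 12.4% lower. Among the inhibitors the ratio was 8.03 (7.18 to 9.0) for Nfkbia, 5.59 (5.16 to 6.06) for Nfkbiz, 3.50 (2.84 to 4.35) for Nfkbie, 2.28 (2.04 to 2.55) for Bcl3 and 2.00 (1.45 to 2.80) for Nfkbib, which sat at the limit.

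**Figure D3:**
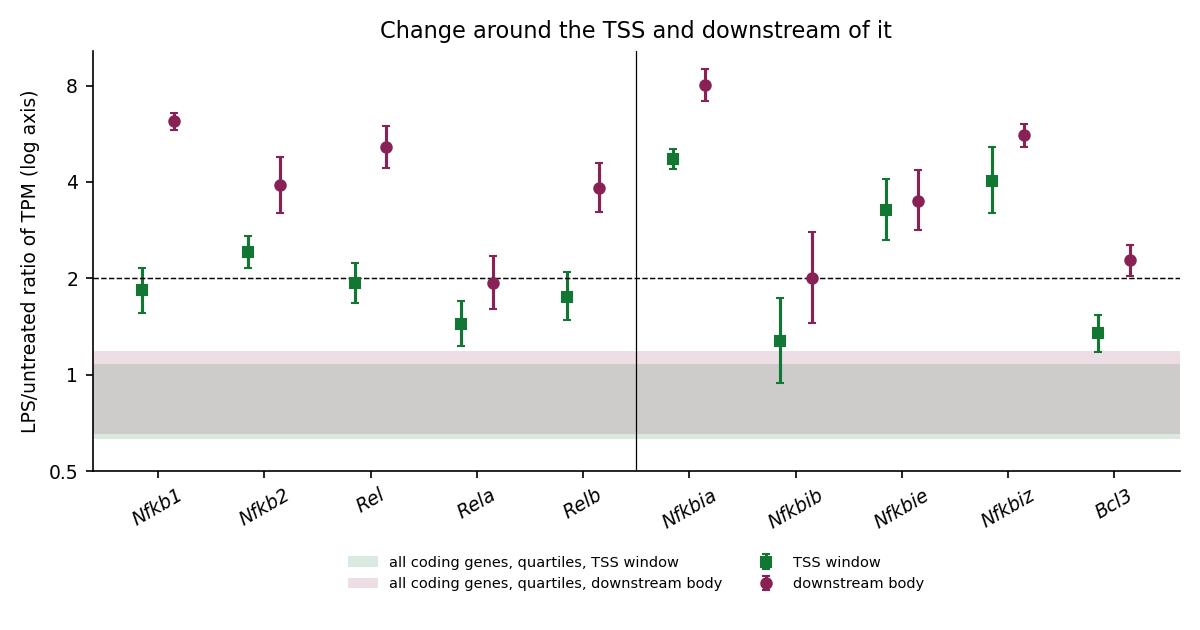
LPS/untreated ratio of TPM (y axis, log axis) in the window of 1 kb on either side of the TSS (squares) and downstream of it (circles) for each gene, with exact 95% intervals for counting error; the shaded bands span the quartiles of all coding genes and the dashed line marks 2. The squares of the subunit genes lie between 1.44 and 2.42, while their circles spread from 1.94 to 6.19.

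Dividing the downstream ratio by that in the window gives a measure that does not depend on library size. It was 3.37 (2.83 to 4.02) for Nfkb1, 2.65 (2.14 to 3.27) for Rel and 2.18 (1.70 to 2.80) for Relb, which were numbers 68, 177 and 339 of the 9146 coding genes with at least 50 Ser5 tags in both parts. The median over those genes was 1.05, and 55.6% were above 1. The other subunit genes, Nfkb2 at 1.61 (1.28 to 2.04) and Rela at 1.34 (1.04 to 1.73), were lower.
The inhibitor genes covered a narrower range, from 1.07 (0.787 to 1.46) for Nfkbie to 1.70 (1.49 to 1.94) for Nfkbia. In Nfkbiz (1.38, 1.07 to 1.77) the downstream part includes an internal start, described below. Of its 739 untreated tags downstream, 528 lay in the third of 4 equal stretches, which holds that start. The stretches before it had ratios of 17.9 and 24.0, against 4.04 in the window. The split can also be given as the window's share of the tags in the window and downstream of it together. This share was 15.9% for Nfkb1 before LPS and 5.29% after it, and 59.4% and 35.6% for Rel. Since the window includes the 1 kb before the TSS, it is not a share of the gene body. In Nfkbie the share was 49.4% (Wilson 95% interval 43.1 to 55.7) before and 47.6% (43.9 to 51.5) after, a difference that was not detectable at this depth.

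In Nfkb1 the higher level ran the whole length of the gene. In 4 stretches of equal length that follow the TSS window, the ratio was 6.55, 6.41, 6.11 and 5.85, from 279, 296, 334 and 401 untreated tags. In the 5 kb past the 3′ end it was 6.23 (4.72 to 8.34). In Rel the 4 stretches lay between 4.33 and 6.44, with intervals that overlapped.

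Nfkbiz was uneven. Of 4 such stretches the first and the second, which follow the distal start, had 36 and 27 tags before LPS, 0.937 and 1.21 times the input. After LPS they had 528 and 532 tags, ratios of 17.9 (12.7 to 25.8) and 24.0 (16.3 to 36.8). The third already carried 528 tags before LPS and went to 1537, a ratio of 3.55 (3.21 to 3.92), and the last went from 148 to 794, a ratio of 6.54 (5.48 to 7.85).

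An internal start lies in the third stretch of Nfkbiz. The annotation gives 3 coding starts, of which those within 1 kb of each other were taken as 1, which left the distal start (Nfkbiz-001) and one 16761 bp downstream (Nfkbiz-004). Within 500 bp of the internal start tags went from 355 to 762, or from 46.6 to 122 TPM per kb, a ratio of 2.62 (2.30 to 2.98). The distal start had 87 and 244 tags, or 11.4 and 39.0 TPM per kb, a ratio of 3.42 (2.67 to 4.42). Thus the internal start held the higher level in both libraries, and the intervals of the 2 ratios overlapped. Nfkb2, treated in the same way, also had a second coding start, 1261 bp downstream, with 176 and 386 tags. Its ratio of 2.67 (2.23 to 3.21) was close to the 2.45 (2.12 to 2.84) of the first. Further starts of Nfkb1, 23738 and 83276 bp downstream, had fewer tags (14 and 63, 23 and 82). Their ratios were 5.48 (3.04 to 10.6) and 4.34 (2.71 to 7.23), against 1.82 at its first. That of Bcl3, 11649 bp downstream, had 13 and 39 tags, a ratio of 3.66 (1.91 to 7.46), against 1.35. That of Nfkbib, 872 bp upstream of its TSS, had 11 and 11 tags.

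**Figure D4:**
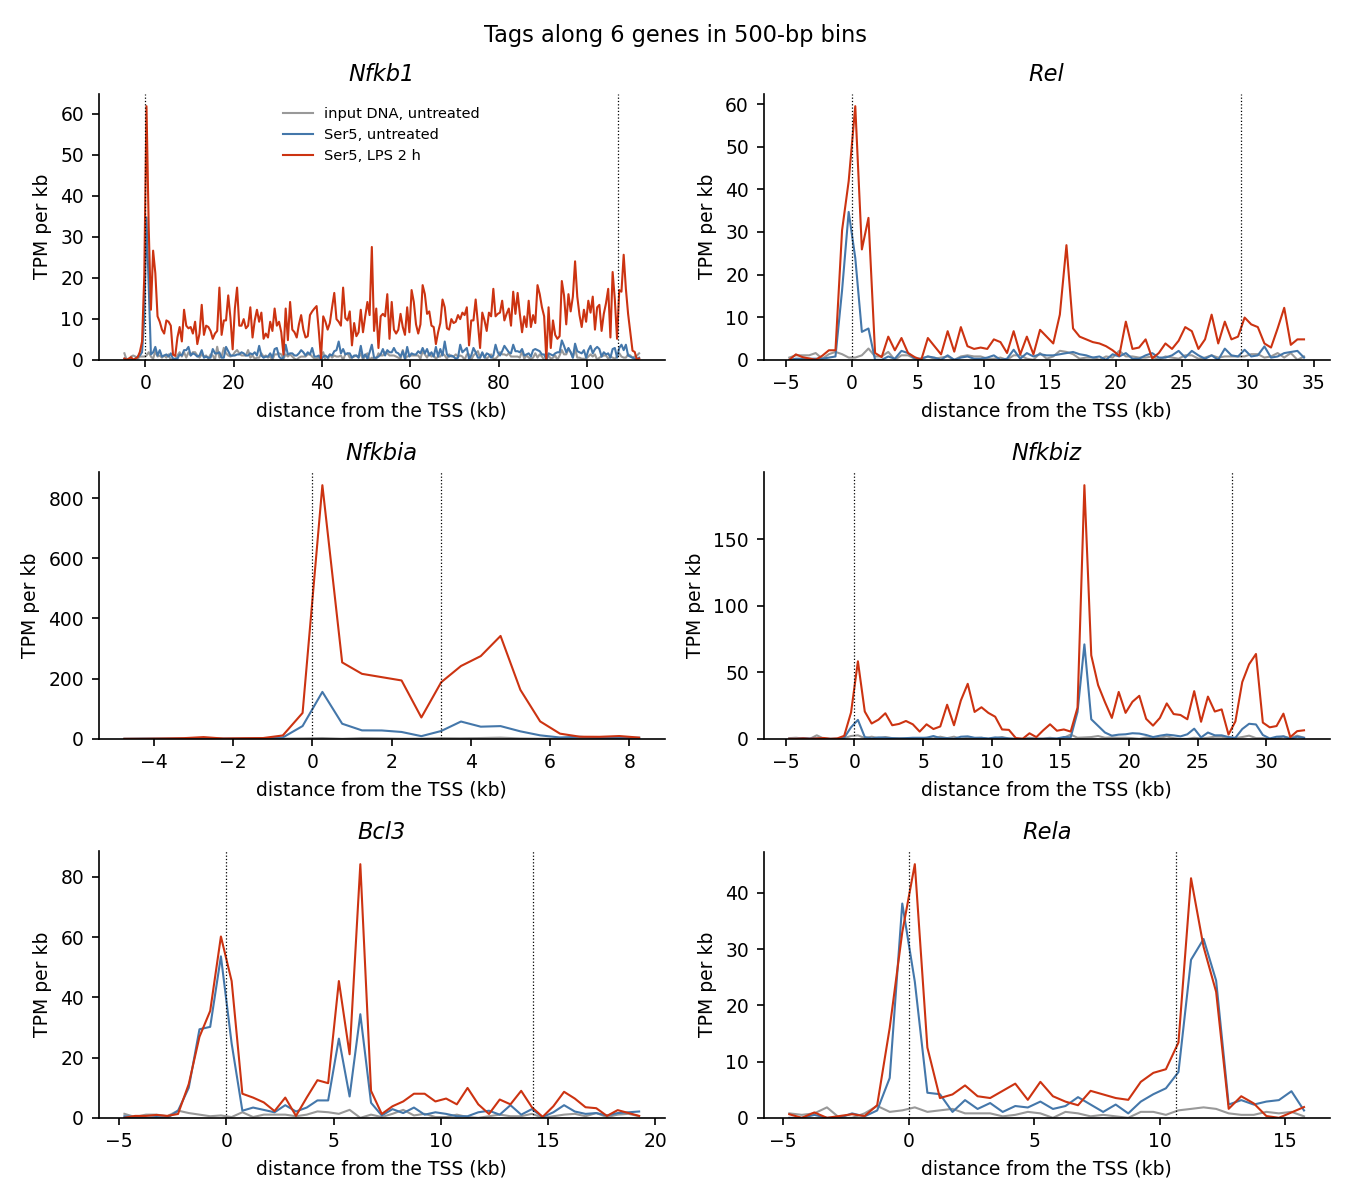
TPM per kb (y axis) in bins of 500 bp along 6 of the genes, by distance from the TSS (x axis, kb, in the direction of transcription), for input (grey), untreated Ser5 (blue) and Ser5 after LPS (red); dotted lines mark the TSS and the 3′ end of the gene. Nfkb1 shows an even level over its body after LPS, Nfkbiz its maximum at the internal start near 17 kb, and Rela a signal past the 3′ end that is alike in both Ser5 libraries.

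The peaks that the authors called gave the same contrast by extent. The 10 gene bodies held 36 peaks in untreated cells and 189 after LPS, while the total over the genome was 53467 and 49371. With peaks of p at most 1e-10 alone, the 10 gene bodies held 19 and 139. Nfkb1 went from 7 to 92 peaks, which covered 2.28% and 87.5% of the gene, and Rel from 3 to 27, covering 3.81% and 44.2%. Covered shares in the other subunit genes went from 26.2% to 84.1% (Nfkb2), from 12.9% to 55.4% (Rela) and from 5.74% to 30.2% (Relb).

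Nfkbia differed in form: it lay entirely inside a single peak in both libraries, which grew from 7366 to 8137 bp with LPS. That region (chr12:56586670-56594806) went from 2115 to 9918 tags, with 98 in the input, and reached past the 3′ end, where the 5-kb flank had 819 and 3898 tags, a ratio of 5.80 (5.38 to 6.26). In the other inhibitor genes the covered share went from 17.6% to 88.3% (Nfkbiz), from 10.0% to 78.3% (Nfkbie), from 20.8% to 72.1% (Bcl3) and from 7.64% to 20.5% (Nfkbib).

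**Figure D5:**
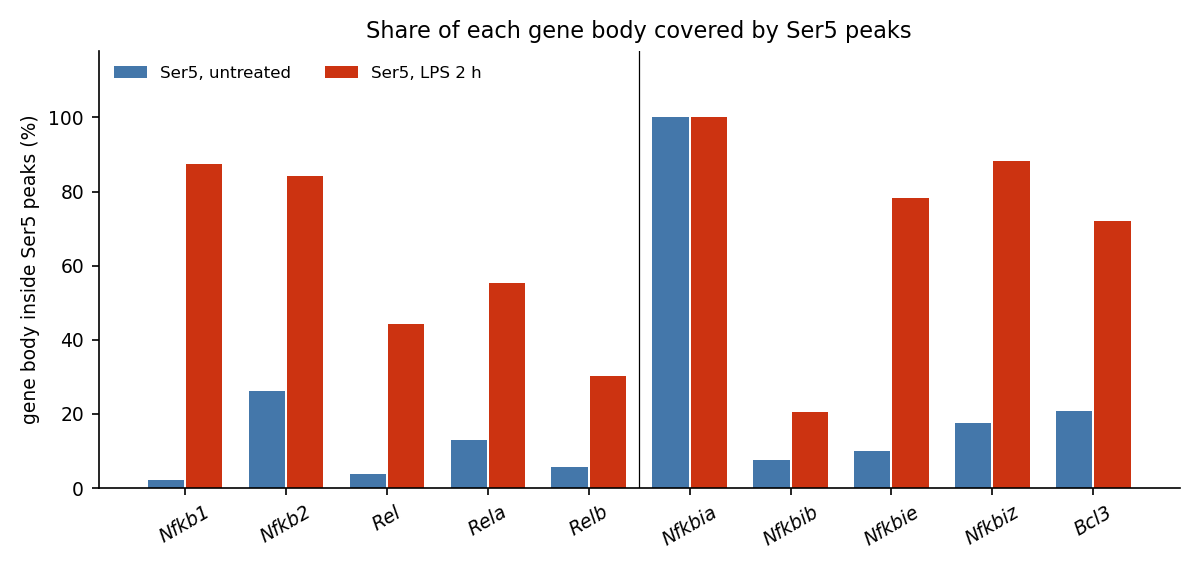
Share of each gene body covered by the deposited Ser5 peaks (y axis, %) in untreated cells (blue) and after LPS (red). All genes but Nfkbia, which is fully covered in both, have a larger share after LPS, with the smallest value after LPS in Nfkbib (20.5%).

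Some of the peaks marked single places inside the genes; those called in 1 library alone were chosen by the values given, so their ratios are descriptions. In intron 2 of Bcl3 a peak region of 2359 bp (chr7:20401264-20403622), centred 5676 bp after the TSS, went from 297 to 535 tags, a ratio of 2.20 (1.90 to 2.54). Before LPS this region nearly matched the 298 tags within 500 bp of the Bcl3 TSS, but over a longer stretch. Per kb it held less, 16.5 against 39.1 TPM per kb before LPS and 36.3 against 52.7 after it. Within 500 bp of that TSS the ratio was 1.35 (1.15 to 1.58). In intron 2 of Nfkbiz a region of 2726 bp (chr16:55829114-55831839) went from 20 to 440 tags and was called after LPS only. In intron 3 of Rel a region of 1204 bp (chr11:23654366-23655569) went from 13 to 125 tags, also called after LPS only.

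Between genes, 13 peaks lay within 20 kb of the 10 genes in untreated cells and 28 after LPS. After LPS, 6 of them lay near Rel, 6 near Nfkbiz and 6 near Bcl3. Those near Nfkb1, Rel and Nfkbiz were past the 3′ ends, and 4 of the Rel regions were nearer to Pus10. The largest region with fewer tags after LPS lay 7459 bp upstream of Bcl3 (chr7:20415578-20416647), where tags went down from 147 to 87, a ratio of 0.721 (0.547 to 0.947). A smaller region 8986 bp upstream of Bcl3 had 43 and 42 tags, which in the smaller LPS library is a ratio of 1.19 (0.759 to 1.87). One 214 bp past the 3′ end of Nfkbib, called in untreated cells only, had 11 and 1.

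The 3′ flanks of several genes reach into other genes, and tags there were not assigned to one gene or the other. Past the 3′ end of Rela, where Sipa1 lies 3055 bp away on the other strand and enters the 5-kb flank, tags went from 424 to 363, a ratio of 1.04 (0.904 to 1.20). Past that of Relb, where Clasrp lies 1749 bp away, the ratio was 1.06 (0.901 to 1.25). The flank of Nfkb2, which reaches into Psd, went from 172 to 650 tags, a ratio of 4.61 (3.89 to 5.48). That of Nfkbie, with Slc35b2 and Hsp90ab1, had a ratio of 1.80 (1.62 to 2.00). In that of Nfkbib, with Sars2, it was 1.09 (0.754 to 1.57). The gene body had a higher ratio than the flank in Rela (1.97), Relb (3.12), Nfkbie (3.53) and Nfkbib (1.58), and a lower one in Nfkb2 (2.94).

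The nearest coding gene on either side of each member was counted, leaving out genes that overlap the member (Psd at Nfkb2, Sirt2 at Nfkbib). Of 20 such neighbours, 18 had at least 10 Ser5 tags, and 1 of these was called higher. It was Tmem151b near Nfkbie, with 5 and 10 tags and a ratio of 2.44 (0.759 to 9.09). Of all coding genes with enough tags 5.83% were called higher, and their median ratio was 0.874. The ratios of the 15 with at least 50 tags ran from 0.380 to 1.57, with a median of 0.776, and 10 were below 1. Of these, Manba, 13251 bp from Nfkb1, had the lowest ratio (0.325 to 0.443), going from 699 to 218 tags, beside the 5.61 of Nfkb1. Psma6 near Nfkbia had the highest of the 15 (1.38 to 1.77), with 458 and 589 tags.

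Of 34 other genes of the pathway, from the receptor to the I-kB kinase and the enzymes that end the signal, 7 were called higher over the gene body, 2 lower and 25 neither, with a median ratio of 1.12. Of all coding genes with enough tags, 5.83% were called higher and 11.3% lower, with a median of 0.874. The highest ratio was that of Tnfaip3, which encodes the ubiquitin-editing inhibitor A20 (548 to 3744 tags, 8.33, 7.61 to 9.12). Next were Birc3 (4.40, 4.02 to 4.83) and Birc2 (2.94, 2.10 to 4.16), which encode ubiquitin ligases. Birc2 had only 51 and 123 tags, 0.515 times the input (0.360 to 0.729) before LPS and 1.51 times (1.15 to 1.99) after it. Of the genes of the kinase itself, Chuk at 1.15 (0.964 to 1.37) and Ikbkb at 1.07 (0.944 to 1.22) had intervals that held 1. Ikbkg, the regulatory subunit, was at 1.31 (1.21 to 1.42). In the TSS window the ratios were 0.963 for Chuk, 1.13 for Ikbkb and 2.11 for Ikbkg, which went from 7.94 to 16.7 TPM per kb there. The lowest ratios were those of Pdlim2, a ligase that acts on nuclear p65 (0.417, 0.331 to 0.520), Map3k14, the kinase of the non-canonical branch (0.473, 0.420 to 0.532), and Tab1, a partner of the kinase Map3k7 (0.516, 0.450 to 0.592). A further nuclear I-kB gene on that list, Nfkbid, went from 774 to 358 tags, a ratio of 0.564 (0.496 to 0.640), below those of all 10 members.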

How the data were processed

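Ser5 ChIP-Seq tags and peaks were taken as deposited. The authors aligned trimmed reads to mm9 with Bowtie, keeping reads with a unique match, and called peaks with MACS against input; the deposited score of a peak is its p-value on the −log10 scale, multiplied by 10, and none was below 50 (1e-05). The methods give the trimmed lengths of the Ser5 libraries in the opposite order to the files, where tags were 45 bases (untreated), 30 (LPS) and 36 (input). Identical tags were kept, and distinct tags made up 84.5%, 81.4% and 82.7%.

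Gene models came from GENCODE M1 (NCBIM37, the same assembly as mm9). The TSS was that of the coding transcript with the longest coding sequence. Tags were counted by 5′ end with numpy 2.4.6. Intervals (scipy 1.17.1) were exact Poisson for levels, exact conditional binomial for ratios and conditional odds ratio for downstream over window. Counting and intervals were tested on simulated data, where 95.8% of 2000 ratio intervals held the true ratio. Genes and lists were chosen with earlier results of these data known. The 10 members were all described, neighbours and the 34 pathway genes by counts and range, with the 3 highest and 3 lowest among pathway genes with at least 50 Ser5 tags; the I-kB kinase genes, Nfkbid and Tmem151b were named after their values were seen. Motifs were read from the mm9 sequence. Alternatives covered duplicate tags, a shift of 75 bp, scaling, windows and TSS choice, peak thresholds and 30-base uniqueness. The value of Nfkbib outside the gene it overlaps was added after seeing the data.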

Additional observations from a re-analysis of the deposited data

How the results depend on the processing

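No paired analysis was possible because each condition had 1 library. The number of genes called higher after LPS was 8 to 9 over the gene body and 4 to 5 in the TSS window under the alternatives tried, and no ratio that had been called turned to the other direction. Leaving out the first 1 kb after the TSS moved the median gene-body ratio of the Rel subunits from 3.12 to 3.90. The share of all coding genes called higher in the TSS window was 3.72% with at least 50 tags and 13.4% with no minimum, against 5.70%, while the 10 genes all had at least 50 tags. Scaling to tags outside the peaks multiplied each LPS/untreated ratio by 1.08, which moved the median over all genes from 0.874 to 0.940 and took Rela over 2 in the gene body and Rel over 2 in the TSS window. Counting only positions whose 30 bases occur once also took Rela over 2. At a p-value of at most 1e-10, intergenic peaks within 20 kb numbered 7 in untreated cells and 16 after LPS, and with all peaks there were 25 and 39 within 50 kb. Peaks in the 10 gene bodies numbered 19 and 139 at the stricter p-value, against 36 and 189. With a window of 500 bp, downstream over window was 1.21 (0.988 to 1.48) for Nfkb2. The difference between conditions cannot be told apart from a difference between 2 libraries, whose tags also differed in length, and their part was not tested.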
